A study of Mus musculus with 6 samples.

Results

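The rows described here are the 50 glycine (Gly) and glutamate (Glu) tRNA gene rows of a small RNA count table, out of 432 tRNA rows and 61949 rows in all. They were chosen by name alone, as every row of type tRNA whose identifier ends in a Gly or Glu anticodon. There were 29 Gly rows and 21 Glu rows. Small RNA was sequenced from extracellular vesicles (EVs), the membrane particles that cells release, with 3 libraries of EVs from cultured cortical astrocytes and 3 of EVs from primary neural stem cells (NSCs), which were taken from the subventricular zone. All 6 libraries came from CD1 mice, a wild-type outbred strain, and no transgene or treatment was named for either group. The astrocytes were prepared from neonatal pups, shaken to remove loosely attached cells and grown in medium with serum, and their EVs were pelleted by centrifugation. The NSC libraries are labelled neonatal, and how those cells were cultured was not given in the sources used here. The labels do not say that replicates were separate cultures, and the p-values then describe no more than the spread among these libraries, which may be technical.

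A tRNA carries 1 amino acid to the ribosome and reads a codon with its anticodon, the 3 bases at the tip of its middle loop. Mammalian genomes hold many copies of each tRNA gene, several of them identical in sequence, and RNA polymerase III transcribes them. Full-length tRNAs can be cut in or near the anticodon loop by ribonucleases such as angiogenin, and the fragments, above all those from the start of Gly and Glu tRNAs, are common in the RNA of EVs and of blood. The counts here say that a read fell on a tRNA gene, not which piece of the tRNA it came from, so fragments and full-length tRNAs are not separated. Fewer EVs that carry a tRNA and less of it in each EV cannot be told apart either.

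The 50 rows were highly repetitive, so they are reported as 19 groups of copies. Their values show that reads matching several genes were entered at each of them. The antisense row of Vac14, a gene with 2 GlyGCC tRNA genes on its other strand, held 12957463 counts, beside a sum of 12955086 over those 2 tRNA rows. Of the 50 rows, 16 had the same 6 counts as another row, and there were 40 distinct sets of counts. Rows of 1 anticodon that differed in every library by at most 5% or 3 counts were therefore taken as copies and represented by their highest row. GlyGCC had 14 rows in 3 groups, GlyCCC 7 rows in 5 groups, GlyTCC 7 rows in 1 group and GlyACC 1 row. GluCTC had 13 rows in 5 groups and GluTTC 8 rows in 4 groups. No row fell under the minimum of 100 counts set for grouping, and all 50 had at least 1 count in every library. The rows were 71 to 74 bases long, so levels of different rows are compared at nearly equal length.

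Many of the copies stood close together in the genome (mm10). On chromosome 1, 13 of the 50 rows (4 GlyGCC, 4 GluCTC and 5 GlyTCC) lay within 65118 bases, chr1:171037997-171103114, among 22 tRNA rows in that span. Within it, a unit with a GlyGCC, a GluCTC and a GlyTCC gene was repeated. The GlyGCC genes chr1.tRNA702, chr1.tRNA704 and chr1.tRNA706 started 7671 and 7574 bases apart, the matching GluCTC genes 7628 and 7614 bases apart, and the matching GlyTCC genes 7635 and 7614 bases apart. A further 8 rows (4 GlyCCC, 2 GluTTC, 1 GluCTC and 1 GlyTCC) lay within 190265 bases of chromosome 3, chr3:96311254-96501518. In the GENCODE vM21 annotation 34 of the 50 rows lay between genes, 14 in introns and 2 over an exon of another gene. RefSeq held a tRNA gene at the same start and end for 48 of the 50, all but chr3.tRNA282-GlyCCC and chr3.tRNA622-GluCTC.

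Gly and Glu rows held a large part of the counts, in which a read can be entered at several genes. Summed with every copy, they held 40.7%, 37.0% and 31.8% of the counts outside miRNA hairpin rows in astrocyte EVs and 29.9%, 17.9% and 27.5% in NSC EVs. These percentages repeat reads that were entered at several genes and are not shares of reads. With 1 row per group of copies, Gly and Glu had 5706381 counts in astrocyte EV library 1, beside 85639460 over all rows outside hairpins. In NSC EV library 2, with the lowest percentage, they had 1425292 beside 44218109. Counting 1 row per group of copies over all isotypes, Gly and Glu held 68.0%, 68.9% and 77.6% of tRNA counts in astrocyte EVs and 81.0%, 74.4% and 77.4% in NSC EVs. Copies were grouped within an anticodon only, so these shares can still repeat reads. The chr3.tRNA282-GlyCCC row, at 95.0 to 98.7% of the GlyGCC leading row's count, held 21.2%, 19.3% and 19.2% in astrocyte EVs. In NSC EVs it held 24.4%, 26.2% and 24.0%. The means were 71.5% ± 5.27 for astrocyte EVs and 77.6% ± 3.27 for NSC EVs (SD, n = 3 libraries each), and the groups overlapped (p = 0.3, exact permutation test, two-sided). With 3 libraries against 3, an exact permutation test cannot go below p = 0.1.

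**Figure D1:**
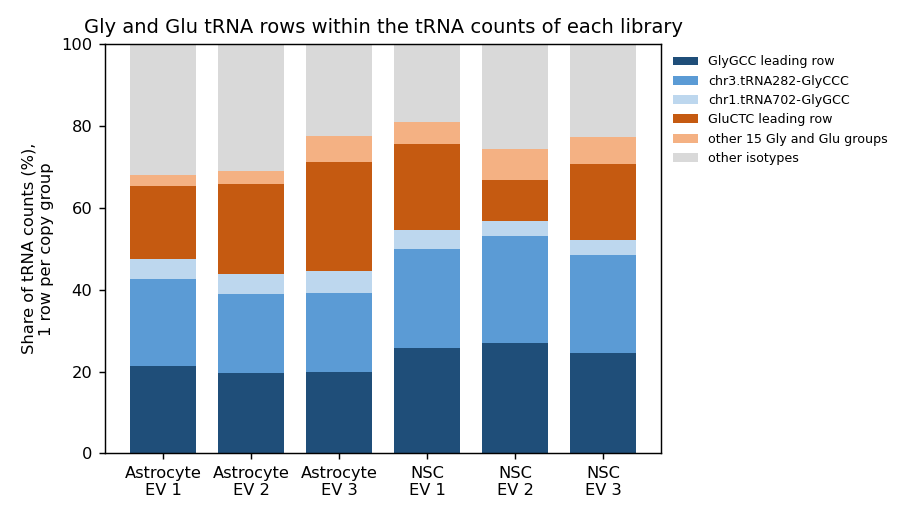
Stacked bars give, for each of the 6 libraries, the share of tRNA counts (%, 1 row per group of copies, axis from 0 to 100) held by 4 named Gly and Glu rows, by the other 15 Gly and Glu groups and by other isotypes. The GlyGCC leading row takes between 19.6 and 21.5% in astrocyte EVs, and between 24.4 and 27.0% in NSC EVs, and the GluCTC leading row is lowest in NSC EV library 2 (10.2%). Rows of different anticodons, such as chr3.tRNA282-GlyCCC and the GlyGCC leading row, can share reads, so the bars are shares of counts.

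The same 3 rows led all tRNA anticodons in every library. They were chr1.tRNA699-GlyGCC, chr3.tRNA282-GlyCCC and chr10.tRNA90-GluCTC, followed in all 6 libraries by the leading rows of ValCAC and ValAAC. Levels are given as CPM, a count scaled to a common library size, here with TMM, a scaling that assumes that most rows do not change. The 3 rows had means of 24240 ± 16900, 23800 ± 16800 and 23790 ± 11200 in astrocyte EVs. In NSC EVs the means were 11560 ± 2900, 11170 ± 2810 and 7985 ± 4240 (SD, n = 3). The SDs of the 3 rows overlapped in either EV type, while within each NSC EV library GluCTC was below GlyGCC, and GlyCCC was a little below GlyGCC in all 6 libraries. In the order by library, GluCTC ranked 1 in astrocyte EV libraries 2 and 3 and ranked 3 in the other 4. The GluTTC leading row ranked 7 in each astrocyte EV library and 6 in each NSC EV library.

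**Figure D2:**
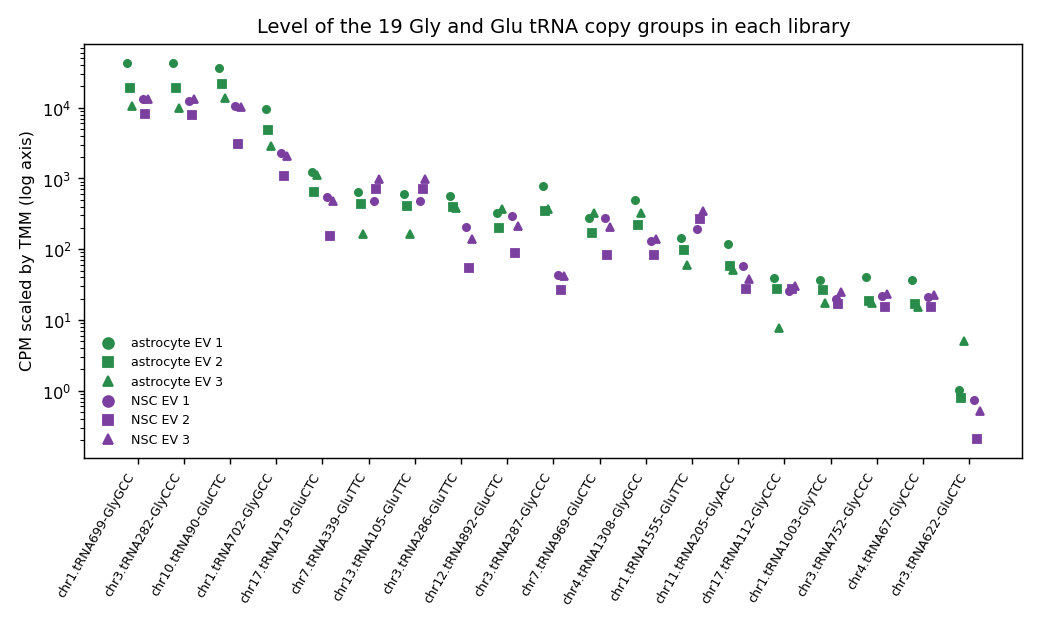
Each point is the level of a group of copies in 1 library (CPM scaled by TMM, log axis), with groups ordered by total count, astrocyte EVs in green and NSC EVs in purple. Levels run from about 43050 for chr1.tRNA699-GlyGCC in astrocyte EV library 1 to 0.2064 for chr3.tRNA622-GluCTC in NSC EV library 2, and the chr3.tRNA287-GlyCCC points of the groups stand farthest apart.

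Between the EV types, 1 of the 19 groups of copies, chr3.tRNA287-GlyCCC, was higher in astrocyte EVs and 0 were lower (edgeR's quasi-likelihood test, Benjamini-Hochberg adjusted over 41308 rows, adjusted p under 0.05). Over all rows tested, 5.54% were called higher and 4.24% lower. At an unadjusted p under 0.05, 6 of the 19 groups were higher and 1 was lower, beside 14.8% and 14.4% of all rows. DESeq2, a second count test, called 6 higher and 1 lower, against 8.3% and 7.19% of all its rows. Without TMM edgeR called 1 higher and 3 lower (1.79% and 7.79% of all rows), and without a low-count filter 3 higher and 0 lower (4.9% and 4.29%). The CPM of the 3 libraries of each EV type did not overlap in 8 of the 19 groups (7 higher and 1 lower), beside 33.8% of all rows tested. The median log2 fold change, astrocyte minus NSC, was 0.90 over the 19 groups (0.98 over the 10 Gly groups and 0.59 over the 9 Glu groups), 0.46 over groups of other isotypes and −0.04 over all rows. These medians depend on the scaling: without TMM that of all rows moved to −0.54 and that of the 19 groups to 0.22. Some of the 19 groups had near-equal counts and may share reads, so the medians and the numbers of groups can repeat the same reads.

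Because the choice of reference moves every fold change, the groups were also fitted among tRNAs alone, with 1 row per group of copies of all isotypes. In that fit 4 of the 19 were higher in astrocyte EVs and 3 were lower, beside 21.9% and 11.9% of the 219 tRNA groups tested. The 4 were chr3.tRNA287-GlyCCC, chr3.tRNA286-GluTTC, chr1.tRNA702-GlyGCC and chr10.tRNA90-GluCTC, and the 3 were the other GluTTC groups. Of those 3, chr7.tRNA339-GluTTC and chr13.tRNA105-GluTTC had near-equal counts and may share reads, so they are not taken as separate measures. The median of the 19 groups was 0.44 and that of other isotypes −0.03.

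**Figure D3:**
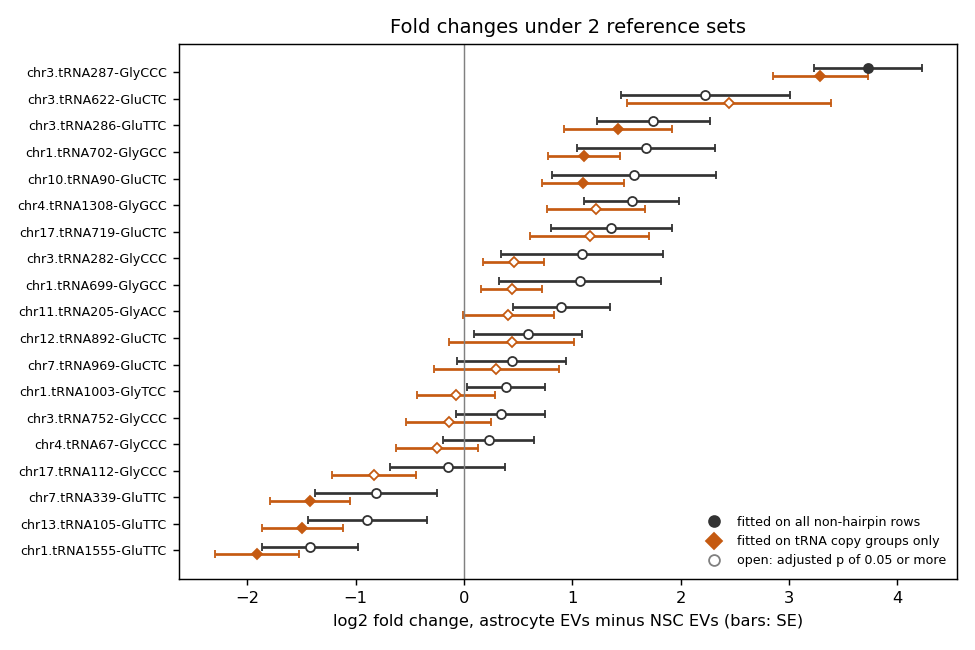
Points are log2 fold changes (astrocyte EVs minus NSC EVs) of the 19 groups with their SE, fitted among all rows outside miRNA hairpins (circles) or among tRNA groups alone (diamonds), and filled points have an adjusted p under 0.05. The chr3.tRNA287-GlyCCC group is filled in both fits at 3.73 and 3.29, and the GluTTC groups lie on both sides of 0, from −1.42 to 1.75 in the fit on all rows.

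GlyGCC tRNAs, which read GGC and GGT codons, gave the highest row. The chr1.tRNA699-GlyGCC group (chr1:171044985-171045055, plus strand, between genes) stood for 10 rows on 6 chromosomes that differed by at most 0.0786%. It had a CPM of 43050, 19270 and 10410 in astrocyte EVs and of 13050, 8214 and 13410 in NSC EVs. Astrocyte EV libraries 1 and 2 lay above every NSC EV library and library 3 lay below 2 of them, so the groups overlapped. The log2 fold change was 1.07 (SE 0.75) with an adjusted p of 0.379 by edgeR, and it dropped to 0.34 without astrocyte EV library 1. Among tRNA counts alone the same row held between 19.6% and 21.5% in astrocyte EVs (mean 20.4% ± 0.977) and 25.7%, 27.0% and 24.4% in NSC EVs (mean 25.7% ± 1.30). Each astrocyte EV share was below each NSC EV share, with a difference of −5.34 percentage points between the means (exact permutation p = 0.1, adjusted p = 0.15 over the 6 anticodons).

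The 3 tandem genes on chromosome 1 formed a separate GlyGCC group with identical counts. The chr1.tRNA702-GlyGCC group (chr1:171066631-171066701, plus strand) had 9716, 4767 and 2844 CPM in astrocyte EVs and 2298, 1076 and 2045 CPM in NSC EVs. Every astrocyte EV library was above every NSC EV library. Its log2 fold change of 1.68 (SE 0.64) did not pass among all rows by edgeR (adjusted p = 0.128), passed by DESeq2 (adjusted p = 0.0146) and passed in the edgeR fit among tRNAs (1.11, SE 0.33, adjusted p = 0.0253). Without astrocyte EV library 1 it was 1.05 by edgeR. As a percentage of the chr1.tRNA699-GlyGCC count in the same library, a measure that needs no scaling, it came to 22.6, 24.7 and 27.3 in astrocyte EVs and to 17.6, 13.1 and 15.3 in NSC EVs (means 24.9 ± 2.38 and 15.3 ± 2.25, exact permutation p = 0.1, 0.3 adjusted over 9 such percentages). This percentage was thus higher in each astrocyte EV library than in each NSC EV library. It was not among the planned ratios. A read that matches both groups can be in both counts, so it is not taken as a balance between 2 sets of genes. The last GlyGCC row, chr4.tRNA1308-GlyGCC (chr4:133114496-133114566, minus strand), had 492.6, 216.9 and 321.7 CPM in astrocyte EVs and 128.7, 82.4 and 140.4 CPM in NSC EVs (log2 fold change 1.55, SE 0.44, adjusted p = 0.0597 by edgeR, 0.0465 by edgeR without a low-count filter and 0.00573 by DESeq2). As a percentage of the chr1.tRNA699-GlyGCC count it came to 1.14, 1.13 and 3.09 in astrocyte EVs and to 0.986, 1.0 and 1.05 in NSC EVs. The EV types did not overlap in this percentage, but only astrocyte EV library 3 stood far apart. Whether the 2 rows share reads was not tested.

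GlyCCC tRNAs, which read GGG codons, had the second highest leading row of all anticodons by total count. They also held the only 1 of the 19 groups past edgeR's test among all rows. The highest GlyCCC row, chr3.tRNA282-GlyCCC (chr3:96311254-96311324, plus strand), had 42510, 18940 and 9968 CPM in astrocyte EVs and 12400, 7959 and 13170 CPM in NSC EVs. In each library its count was 95.0 to 98.7% of that of chr1.tRNA699-GlyGCC, a row of another anticodon, while the next GlyCCC row was far lower. A read entered at several genes gives such near-equal counts, so this row is not taken as a separate measure of GlyCCC tRNA, although the sources used here do not give its reads. Its log2 fold change came to 1.09 (SE 0.75), with an adjusted p of 0.37, beside 1.07 for the GlyGCC row, and 0.35 without astrocyte EV library 1.

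The chr3.tRNA287-GlyCCC group comprised 2 genes of chromosome 3 with identical counts, chr3.tRNA287 (chr3:96382911-96382981, plus strand) and chr3.tRNA755 (chr3:96351167-96351237, minus strand), each in an intron of an annotated lincRNA on its strand. It had 771.2, 350.3 and 365.3 CPM in astrocyte EVs and 43.96, 26.16 and 41.78 CPM in NSC EVs. The lowest astrocyte EV library was far above the highest NSC EV library. The log2 fold change came to 3.73 (SE 0.50), with an adjusted p of 0.0156. The fold change stayed between 3.24 and 3.92 when any library was left out. The adjusted p rose to 0.0541 without astrocyte EV library 1, 0.065 without astrocyte EV library 2 and 0.0534 without NSC EV library 3. The edgeR fits without astrocyte EV library 1 or 2 called 0 rows in the whole table (9885 and 9729 rows had an unadjusted p under 0.05), and the fit without NSC EV library 3 called 18 (10175 rows).

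The other GlyCCC groups had low counts, and the EV types overlapped in each. The chr17.tRNA112-GlyCCC group, which also stands for chr6.tRNA317, had 39.15, 27.47 and 7.596 CPM in astrocyte EVs and 25.29, 27.09 and 30.17 CPM in NSC EVs (log2 fold change −0.15, SE 0.53, adjusted p = 0.876). Its value turned to 0.29 without astrocyte EV library 3, the lowest of the 6. The rows chr3.tRNA752-GlyCCC and chr4.tRNA67-GlyCCC had log2 fold changes of 0.34 (SE 0.41) and 0.23 (SE 0.42), and both values were negative without TMM, among tRNAs alone and without astrocyte EV library 1. Their counts were near-equal, with 1691 and 1561 in astrocyte EV library 1 and 964 and 957 in NSC EV library 2. The 2 rows may share reads and are not taken as separate measures. The ratio between 2 GlyCCC groups within a library was compared after the values had been seen, so its p-value describes the separation and does not test it. The count of chr3.tRNA287-GlyCCC reached 19.7, 12.8 and 48.1 times that of chr17.tRNA112-GlyCCC in astrocyte EVs and 1.74, 0.966 and 1.38 times in NSC EVs. On the log2 scale the difference was 4.11 (means 4.52 ± 0.976 and 0.406 ± 0.427, exact permutation p = 0.1, 0.15 adjusted over 6 ratios).

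GlyTCC and GlyACC were the low members. GlyTCC tRNAs, which read GGA codons, had 7 rows that differed by at most 2.43% and formed 1 group. That group, named by chr1.tRNA1003-GlyTCC (chr1:171079948-171080019, minus strand), had 36.38, 26.64 and 17.15 CPM in astrocyte EVs and 19.84, 16.73 and 24.7 CPM in NSC EVs. The groups overlapped, and the log2 fold change of 0.39 (SE 0.36, adjusted p = 0.521) was −0.25 without TMM, −0.07 among tRNAs alone and 0.08 without astrocyte EV library 1. Its share of tRNA counts averaged 0.0261% ± 0.00746 in astrocyte EVs and 0.0463% ± 0.00811 in NSC EVs, and the libraries did not overlap (exact permutation p = 0.1, adjusted p = 0.15). The GlyACC row, chr11.tRNA205-GlyACC (chr11:48823728-48823801, plus strand), had 119.0, 58.32 and 51.09 CPM in astrocyte EVs and 58.18, 27.02 and 37.58 CPM in NSC EVs (log2 fold change 0.90, SE 0.45, adjusted p = 0.23, and 0.40 without astrocyte EV library 1).

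GluCTC tRNAs, which read GAG codons, were led by chr10.tRNA90-GluCTC (chr10:30811140-30811211, plus strand), which stood for 9 rows that differed by at most 0.158%. It had 35900, 21700 and 13760 CPM in astrocyte EVs and 10660, 3092 and 10200 CPM in NSC EVs. Every astrocyte EV library was above every NSC EV library, and NSC EV library 2 was the lowest. The log2 fold change was 1.57 (SE 0.76). It did not pass among all rows by edgeR (adjusted p = 0.21), passed by DESeq2 (1.57, adjusted p = 0.0344) and passed in the edgeR fit among tRNAs (1.10, SE 0.38, adjusted p = 0.0458). As a share of tRNA counts the row held 17.9%, 22.1% and 26.5% in astrocyte EVs and 21.0%, 10.2% and 18.6% in NSC EVs, and the groups overlapped (exact permutation p = 0.3, adjusted p = 0.36).

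The 4 further GluCTC groups, each a single row, were far lower, at no more than 8.25% of the leading row's count in any library. The chr17.tRNA719-GluCTC row (chr17:56092001-56092072, minus strand, in an intron of Hdgfl2 on the other strand) had 1225, 653.3 and 1135 CPM in astrocyte EVs and 545.4, 155.6 and 474.9 CPM in NSC EVs (log2 fold change 1.36, SE 0.56, adjusted p = 0.15). As a percentage of the leading row it came to 3.41, 3.01 and 8.25 in astrocyte EVs and to 5.11, 5.03 and 4.66 in NSC EVs, so the astrocyte EV libraries alone spanned more than the range of the NSC EV libraries. The rows chr12.tRNA892-GluCTC and chr7.tRNA969-GluCTC had log2 fold changes of 0.59 and 0.44 (SE 0.50 for each), with overlapping groups, and 0.25 and 0.10 without NSC EV library 2. Their counts were close, with 13542 and 11583 in astrocyte EV library 1 and 5587 and 5236 in NSC EV library 2. The 2 rows may share reads and are not taken as separate measures. The lowest of the 50 rows, chr3.tRNA622-GluCTC, had 881 counts in all and 1.028, 0.7985 and 4.989 CPM in astrocyte EVs against 0.7356, 0.2064 and 0.5252 CPM in NSC EVs (log2 fold change 2.23, SE 0.78, adjusted p = 0.104 by edgeR and 0.0244 by DESeq2). Astrocyte EV library 3 was the highest, and without it the value was 0.91.

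GluTTC tRNAs, which read GAA codons, had groups with fold changes of opposite sign. The leading group, chr7.tRNA339-GluTTC (chr7:58399315-58399386, plus strand, 3 rows), had 640.9, 439.5 and 165.7 CPM in astrocyte EVs and 479.0, 713.5 and 988.4 CPM in NSC EVs. The groups overlapped in CPM, and the log2 fold change came to −0.81 (SE 0.56), with an adjusted p of 0.376. The row chr13.tRNA105-GluTTC followed it closely, at 596.0, 413.7 and 162.5 CPM and 478.3, 712.7 and 984.9 CPM (log2 fold change −0.89, SE 0.55, adjusted p = 0.32). In NSC EVs this row had 27311, 44890 and 54390 counts, beside 27347, 44943 and 54583 for the leading row. The 2 groups may therefore share most reads, and they are not taken as separate measures. Without astrocyte EV library 3 the values of these 2 groups were −0.42 and −0.51, and without astrocyte EV library 1 they were −1.28 and −1.35. The chr1.tRNA1555-GluTTC group, with chr14.tRNA364, had 146.1, 96.89 and 60.59 CPM in astrocyte EVs and 191.2, 270.2 and 348.5 CPM in NSC EVs. Every astrocyte EV library of that group was below every NSC EV library (log2 fold change −1.42, SE 0.44, adjusted p = 0.0791 by edgeR and 0.0159 by DESeq2). Among tRNAs alone all 3 groups were lower in astrocyte EVs, at −1.42 (SE 0.37, adjusted p = 0.0133), −1.49 (SE 0.37, adjusted p = 0.0106) and −1.91 (SE 0.39, adjusted p = 0.0031). As a share of tRNA counts the leading row held 0.320%, 0.447% and 0.319% in astrocyte EVs and 0.941%, 2.35% and 1.80% in NSC EVs (exact permutation p = 0.1, adjusted p = 0.15).

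The chr3.tRNA286-GluTTC group was the one with a positive fold change. Its 2 genes, chr3.tRNA286 (chr3:96346675-96346746, plus strand) and chr3.tRNA754 (chr3:96387405-96387476, minus strand), had identical counts and lie in the chromosome 3 cluster, starting 4492 and 4494 bases from the GlyCCC genes chr3.tRNA755 and chr3.tRNA287. The group had 566.6, 397.1 and 376.5 CPM in astrocyte EVs and 203.0, 54.39 and 139.7 CPM in NSC EVs. Every astrocyte EV library was above every NSC EV library. The log2 fold change of 1.75 (SE 0.52) missed the threshold among all rows by edgeR (adjusted p = 0.0695) and passed without a low-count filter (adjusted p = 0.045), by DESeq2 (adjusted p = 0.00759) and in the edgeR fit among tRNAs (1.42, SE 0.50, adjusted p = 0.0458). Its count was 1.58, 1.83 and 2.74% of that of chr10.tRNA90-GluCTC in astrocyte EVs and 1.90, 1.76 and 1.37% in NSC EVs, and the EV types overlapped in this proportion (exact permutation p = 0.5). Reads shared between these 2 anticodons were not tested.

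Ratios within a library put the anticodons beside each other without any library scaling. The GluCTC leading row was 0.834, 1.13 and 1.32 times the GlyGCC leading row in astrocyte EVs and 0.817, 0.377 and 0.761 times in NSC EVs. The difference in log2 ratio was 0.803 (means 0.104 ± 0.338 and −0.699 ± 0.618), and the nearest libraries of the 2 EV types were almost level. It was 0.447 without NSC EV library 2, and with the second GluCTC group, chr17.tRNA719-GluCTC, in place of the first it was 0.636 and the EV types overlapped (exact permutation p = 0.6). The GluTTC leading row was 0.0178, 0.0202 and 0.0120 times the GluCTC leading row in astrocyte EVs and 0.0449, 0.231 and 0.0969 times in NSC EVs, a difference in log2 ratio of −2.62 (means −5.94 ± 0.391 and −3.32 ± 1.18). Within GluTTC, the ratio of chr7.tRNA339 to chr3.tRNA286, compared after the values had been seen, stood at 1.13, 1.11 and 0.440 in astrocyte EVs and at 2.36, 13.1 and 7.08 in NSC EVs (log2 difference −2.88). For these 3 ratios the libraries did not overlap and each exact permutation p was 0.1, the smallest possible, or 0.15 adjusted over 6 ratios. For the first 2, adjusted over the 4 planned ratios alone, it was 0.2. The chr7.tRNA339 to chr3.tRNA286 ratio was chosen from rows already seen to differ, so its p-value describes the separation and does not test it. The GlyTCC to GlyGCC ratio overlapped between EV types (log2 difference −0.522, exact permutation p = 0.2, and −0.244 without astrocyte EV library 1).

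**Figure D4:**
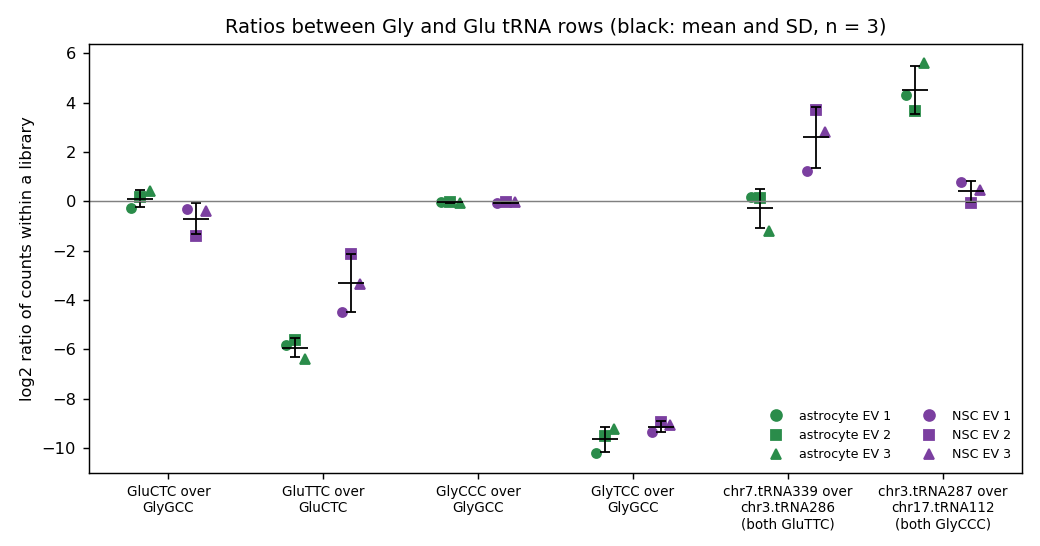
Points are log2 ratios of 2 tRNA rows within each library, for astrocyte EVs (green) and NSC EVs (purple), with the mean and SD in black (n = 3). The EV types do not overlap for GluCTC over GlyGCC, GluTTC over GluCTC and the 2 ratios within an anticodon, and GlyCCC over GlyGCC sits at about 0 in all 6 libraries.

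Rows of other types over the same genes repeated the tRNA counts. The row of Trim2, which has chr3.tRNA878-GlyGCC in an intron on its own strand, held 6480845 counts beside 6477836 for the tRNA. Where the host gene lies on the other strand the sense row was small, as for Vac14 with 2900 counts. Elf1, with chr14.tRNA364-GluTTC in an intron on its strand, held 71256 counts beside 67905. The values of the Trim2 and Elf1 rows are thus nearly those of the tRNAs. In the one tRNA row that lies wholly within an exon, chr17.tRNA112-GlyCCC (chr17:25875088-25875158, plus strand, in an exon of Mettl26), the table also lists 2 piRNA rows on the same strand. These cover bases 1 to 32 with 8221 counts and bases 26 to 52 with 7115 counts, beside 9245 counts for the whole tRNA. The anticodon of that row lies at bases 33 to 35, just after the first of the 2.

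Genes that make, charge or cut tRNAs were seen as fragments in the same libraries. Of 20 such genes that were listed, all 20 were tested, 0 were higher in astrocyte EVs and 1 was lower by edgeR, beside 5.54% and 4.24% of all rows. At an unadjusted p under 0.05 there were 3 and 3, near the shares of 14.8% and 14.4% over all rows. DESeq2 called 1 higher and 2 lower, beside 8.3% and 7.19%. Elac2, which trims the 3′ end of precursor tRNAs, had 60, 148 and 151 counts in astrocyte EVs and 418, 275 and 258 counts in NSC EVs (log2 fold change −1.75, SE 0.41, adjusted p = 0.0366). Its call was lost in 5 of the 6 fits that left out 1 library. Of those 5, the fits without astrocyte EV library 1 or 2 called 0 rows in the whole table, and that without NSC EV library 3 called 18. The fits without astrocyte EV library 3 and without NSC EV library 1 called 4009 and 2543 rows. Eprs, the synthetase that charges Glu tRNAs, had 253, 433 and 2628 counts in astrocyte EVs and 236, 228 and 171 counts in NSC EVs (log2 fold change 1.54, SE 0.47, adjusted p = 0.0739). The median log2 fold change of the list was −0.28. Elac1, Bdp1 (a subunit of the polymerase III factor TFIIIB) and Gtf3c1 (a subunit of TFIIIC) had values of −1.20, −1.99 and −0.74, none past the test. In the first 2, 1 NSC EV library stood out. Elac1 had 284, 359 and 399 counts in astrocyte EVs and 499, 248 and 1251 in NSC EVs. Bdp1 had 82, 171 and 359 counts in astrocyte EVs and 214, 1378 and 172 in NSC EVs.

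The labels name no batch, but the libraries differed in ways that touch every value above. Counts outside hairpin rows ran from 72068913 to 111276337 in astrocyte EVs and from 44218109 to 50585031 in NSC EVs, and TMM factors from 0.488 in astrocyte EV library 1 to 1.42 in NSC EV library 2. Astrocyte EV library 1, with the lowest factor, had the highest CPM of the 6 libraries in all 10 Gly groups. Summed markers of mesenchymal cells, led by mmu-miR-143-3p, were 15.4 to 274 CPM in astrocyte EVs against 3.46 to 6.57 CPM in NSC EVs, and all 4 were detected in both (mmu-miR-145a-5p was at 0 in NSC EV library 3). The astrocyte EV values of mmu-miR-143-3p were 257, 171 and 8.64 CPM, and without it the sums were 6.72 to 16.7 CPM against 1.77 to 4.27 CPM. In each astrocyte EV library mmu-miR-143-3p and Col1a2 lay higher, while Col1a1 and mmu-miR-145a-5p overlapped. Red blood cell markers (4 listed, with mmu-miR-451a at 0 in every NSC EV library) were 2.34 to 3.23 CPM against 0.123 to 0.413 CPM. Of these, mmu-miR-451a and mmu-miR-144-3p lay higher in each astrocyte EV library, while the globin genes Hba-a1 and Hbb-bs overlapped. Hba-a1 was 0.0718, 0 and 0.801 CPM in astrocyte EVs and 0.0175, 0.286 and 0.145 CPM in NSC EVs. Neuron markers (4 of 4 detected) were 64.0 to 90.1 CPM against 158 to 260 CPM, of which Rbfox3 was nearly all. Without Rbfox3 they were 6.61 to 8.32 CPM against 7.29 to 8.68 CPM. Microglia markers (4 of 5 in the table) were 2.61 to 3.78 CPM against 2.91 to 9.30 CPM. Without Csf1r, which was highest in NSC EV library 1 (7.48 CPM), they were 1.32 to 1.64 CPM against 1.22 to 1.82 CPM. Of the 4, Aif1 alone lay higher in each astrocyte EV library. The counts of mmu-miR-223-3p were 0, 1 and 5 in astrocyte EVs and 0 in every NSC EV library. The sum of 8 astrocyte markers, led by Slc1a2, overlapped between EV types. It was 25.5 to 32.2 CPM in astrocyte EVs and at most 49.7 CPM in NSC EVs, where every library lay above 25.5 CPM. Of the 8, Gfap, Glul and Gja1 lay above every NSC EV library in each astrocyte EV library, and the others overlapped. Among those others, Slc1a2 was highest in NSC EV library 3 (39.9 CPM, beside at most 19.9 CPM in astrocyte EVs). Slc1a3 was highest in NSC EV library 2 (14.8 CPM, beside at most 4.15 CPM in astrocyte EVs). The sum of 7 NSC markers also overlapped (19.8 to 23.1 CPM against 14.7 to 24.9 CPM), and 2 of them, Dlx2 and Mki67, lay higher in each astrocyte EV library. Rows of host genes include introns, and the part of other cells in the tRNA values was not tested.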

How the data were processed

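The authors deposited whole-number counts for 61949 annotated rows in 6 libraries, without normalization, on the mm10 build. Tools listed in the submitters' processing notes are Bowtie, Bowtie2, DESeq, FastQC, SAMtools, bedtools and cutadapt, with no versions or order. The sources used here do not give the rule for reads with several matching positions. The authors' tables of group means, fold changes and adjusted p-values were not used. The 50 rows, the gene lists and the tests were chosen with earlier results of these data known.

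Hairpin rows (788), which repeat mature miRNA reads, were left out, and library size was the sum of the other 61161 rows. A row joined a group of copies when it had at least 100 counts and differed from the group's top row of the same anticodon by at most 5% or 3 counts in every library. The test was edgeR 4.0.16 in R 4.3.3 (default filter by group, TMM, quasi-likelihood, Benjamini-Hochberg over 41308 rows, biological coefficient of variation 0.449). Shares and within-library ratios were compared by exact two-sided permutation. Named rows were the leading row of each anticodon, its next 3 groups by total count, groups past the test, and, of the tRNA handling genes, the 4 of highest count and those past the test. Each other row named was chosen after its values were seen. In simulated libraries, with 50 of 41308 rows changed at each fold size, 8% of rows changed 4-fold and 72% of rows changed 8-fold were called. Fewer rows changed there than were called in the data, so these percentages are not the power of the reported fit. No 2 replicates agreed within sampling noise (smallest chi-square per degree of freedom 91.7). DESeq2 1.42.0, other scalings and filters, a fit on tRNA groups alone, a replicate block and each library left out were alternatives. Tables were handled in pandas 2.3.3 and numpy 2.4.6 under Python 3.11.15, with plots in matplotlib 3.10.9.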

Additional observations from a re-analysis of the deposited data

How the results depend on the processing

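The choice of tool and reference rows moved the calls most. Groups of copies higher in astrocyte EVs numbered 1 in the reported fit, 6 by DESeq2, 3 with no low-count filter, 4 in the fit among tRNA groups and 0 to 1 when a library was left out. Groups lower numbered 0, but 1 by DESeq2, 3 without TMM, where 7.79% of all rows were lower and 1.79% higher, and 3 among tRNA groups. Both sets of 3 include chr7.tRNA339-GluTTC and chr13.tRNA105-GluTTC, which had near-equal counts. The GluCTC leading row passed by DESeq2 (1.57) and among tRNA groups (1.10), and the GluTTC leading row without TMM (−1.56) and among tRNA groups (−1.42). GlyTCC turned to −0.25 without TMM and −0.07 among tRNA groups, chr3.tRNA752-GlyCCC to −0.34 and −0.14, and chr4.tRNA67-GlyCCC to −0.46 and −0.25. Those 2 GlyCCC rows had near-equal counts and may share reads. With a library left out, chr3.tRNA752-GlyCCC ran from −0.19 to 0.56, chr4.tRNA67-GlyCCC from −0.31 to 0.47 and chr17.tRNA112-GlyCCC from −0.67 to 0.29. For tRNA handling genes, DESeq2 gave 1 higher and 2 lower, no filter 1 higher, no TMM 3 lower, the replicate block 0 lower, and leaving out a library 0 to 1 lower. The cause of these changes was not tested.

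Shares depended on the denominator by construction. Over all rows outside hairpins, the differences between EV types were 0.3 percentage points for GlyGCC, 0.311 for GlyCCC, −0.000396 for GlyTCC, −0.0588 for GluTTC and 1.63 for Gly and Glu together. Over every tRNA row they were −1.06, −0.985, −0.00396 and −0.256 for the 4 anticodons. Leaving chr3.tRNA282-GlyCCC out, an alternative added after seeing the data, gave −5.74 for Gly and Glu together, beside −6.07. With chr3.tRNA287-GlyCCC in place of the leading GlyCCC row, the GlyCCC to GlyGCC log2 difference was 2.81. GlyTCC has no second group of copies, so that alternative gave no value. At a tolerance of 1% there were 20 groups of copies and at 20% there were 16.

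Replicate numbers are shared between the EV types, but same-numbered libraries did not deviate together (correlations −0.0812, −0.0336 and −0.134). With a replicate block, 1 of the 19 groups was called, chr3.tRNA287-GlyCCC (3.67, adjusted p = 0.0319), and calls over all rows fell from 4040 to 1245. With 3 libraries a group and a biological coefficient of variation of 0.449, 0% of 50 simulated 2-fold changes were called. That simulation changed only 50 of 41308 rows at each fold size, far fewer than the 4040 rows called here. The adjusted threshold was therefore stricter in it, so it does not show what size of change these data can detect.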
